A study of Mus musculus with 2 samples.

Results

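The collagen chain genes of the mouse genome were followed through nuclei of the ascending aorta and aortic arch. Members were all genes whose symbol consists of Col, a type number, the letter a and a chain number, which gave 44 of the 54754 features counted. Single-nucleus RNA sequencing counts RNA in isolated nuclei, each marked by a droplet barcode, and counts each captured molecule once as a UMI. Tissue of Wnt1-Cre/Rosa26-mTmG mice was pooled within each sex, giving a Female and a Male library that carry the same alleles, with no treatment named. In these mice cells express tdTomato until the Cre recombinase driven by Wnt1 sequences, active in the neural crest, switches them and their descendants to GFP. The labels give 6 mice, in wording that can mean per sex or in all, and 2 technical splits per pool, which the barcodes do not separate. Age and strain are not stated in the labels used here.

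Collagens are secreted proteins built from chains that wind into triple helices, and each gene codes for 1 chain. In arteries, fibrillar collagens made by fibroblasts and smooth muscle cells give the wall its tensile strength. Type IV collagen forms the network of the basement membranes that underlie endothelium and surround smooth muscle cells and adipocytes. Fibril-associated collagens attach to fibrils, beaded filament collagens link cells to the matrix, and transmembrane collagens stay anchored in the cell surface.

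Nuclei with at least 300 genes were placed in a class by the largest UMI sum of 3 marker genes, with a sum of 3 or more. The markers were Myh11, Acta2 and Lmod1 for muscle, Ptprb, Flt1 and Pecam1 for endothelium, Pdgfra, Dcn and Scara5 for fibroblasts, Adipoq, Plin1 and Plin4 for fat, and Mrc1, F13a1 and Cd163 for macrophages. Female and Male nuclei numbered 8124 and 7656 in muscle, 5166 and 6766 in endothelium, 2181 and 2477 in fibroblast, 1475 and 1334 in fat and 481 and 696 in macrophage classes. The libraries held 79294181 and 77989549 UMIs, and median UMIs per nucleus ranged over the classes from 2392 to 6979. Levels are given in CPM, the UMIs of a gene scaled to the same total in each class and library. Most markers outside the rule followed the names, with Myocd at 1084 and 1457 CPM in muscle nuclei, Vwf at 783 and 892 CPM in endothelium, and Csf1r at 753 and 777 CPM in macrophages. The endothelial fit was partial, since Flt1 was at 142 and 127 CPM in muscle against 126 and 145 CPM in endothelium. Kdr, an endothelial receptor gene, was at only 10.2 and 9.68 CPM there, below fibroblasts at 13.7 and 21.0 CPM. Tek, an endothelial marker, stood at 181 and 209 CPM in fibroblasts against 671 and 564 CPM in endothelium. Mfap5, a fibroblast marker, stood at 467 and 644 CPM in fibroblasts, 273 and 351 CPM in endothelium and 191 and 216 CPM in muscle. Fibroblast nuclei also held the mesothelial markers Msln, Upk3b, Wt1 and Krt19, summing to 129 CPM in the Female and 241 CPM in the Male library. The pericyte markers Rgs5, Kcnj8, Abcc9 and Higd1b summed higher, to 678 and 566 CPM in fibroblast and 423 and 365 CPM in muscle nuclei. Their part in the collagen values was not tested. Fat nuclei held Ucp1, a brown fat gene, at 197 and 114 CPM. A set of 4286 barcodes occurred in both libraries, and 31.0% of those with a class in both had the same class, against 30.7% given by the class shares. For each class 7 markers were taken, among them the 3 used by the rule. These stood in the other classes at a median of 0.0598% to 6.97% of the level in their own class. The rule moves nuclei rich in its own markers out of the other classes, so it partly sets the low level of those 3. Some single markers stood far higher, with Flt1 at 113% in Female muscle, Kdr at 217% in Male fibroblasts and Mfap5 at 58.4% in Female endothelium.

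Values below are CPM, with the Female library first and the Male library second. In nuclei, long genes give more UMIs than short ones, so levels are compared between classes and not between genes. For each class, summed UMIs per library were compared with the mean of the other 4 classes by edgeR's quasi-likelihood test with the library as a covariate. A gene was called at a Benjamini-Hochberg adjusted p under 0.05 and a difference of at least 2-fold. With the library as a covariate, the p-values measure how the class differences vary between the Female and Male pools, which also differ by sex. They leave out any shift common to all classes and the spread between animals.

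Collagen chain genes were most often called higher in fibroblast and muscle nuclei and most often called lower in fat and macrophage nuclei. Of the 44 members, 37 reached 50 UMIs and were tested. In fibroblast nuclei 21 were called higher, where 15.1% of all 19490 genes were, and 1 was called lower, against 8.49%. In muscle nuclei 18 were called higher, against 14.5% of all genes, and 1 lower, against 10.4%. In endothelium 7 were called higher, against 14.1%, and 11 lower, against 9.11%. In fat nuclei 4 were called higher, against 20.3%, and 19 lower, against 22.6%. In macrophage nuclei 2 were called higher, against 12.7%, and 21 lower, against 13.3%. The members' median log2 difference was 1.91 in fibroblast, 1.23 in muscle, -0.66 in endothelium, -2.48 in fat and -1.35 in macrophage nuclei, with medians over all genes between -0.22 and -0.01. A member can be higher than the mean of the others in more than 1 class, and 12 were called higher in both muscle and fibroblast nuclei. The share of all genes called in both is not given, so this overlap is not read as particular to collagens.

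**Figure D1:**
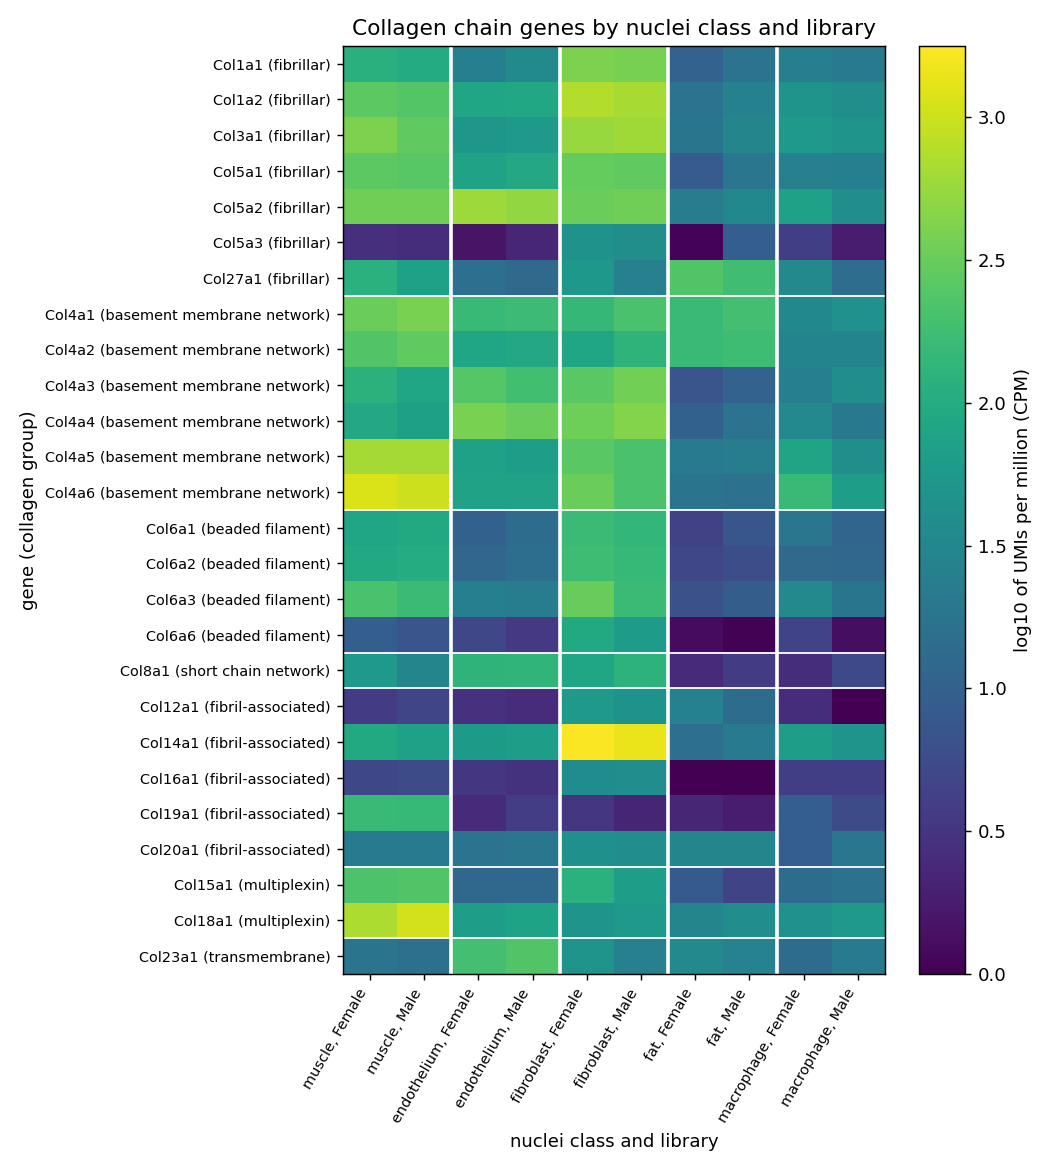
Colour gives the log10 of CPM for the 26 collagen chain genes with at least 20 CPM in 1 class of both libraries, in rows by collagen group, and the columns give the 5 nuclei classes with each library side by side. The darkest colour stands for 1 CPM or less. Along its row, Col14a1 is brightest in the fibroblast columns (1678 and 1429.6 CPM) and Col4a6 in the muscle columns (1151 and 1009 CPM), and most rows are dark in fat.

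Of the 10 fibrillar genes tested, 6 were called higher in fibroblasts and 6 in muscle. The genes of type I and type III collagen, the main fibrils of the vessel wall, were highest in fibroblasts, with muscle second. Col1a1, a chain of type I, stood at 402 and 388 CPM in fibroblast, 114 and 101 in muscle, 25.2 and 35.6 in endothelium, 10.4 and 17.2 in fat and 24.9 and 22.4 in macrophage nuclei. Col1a2, its partner chain, stood at 745 and 675 CPM in fibroblast, 272 and 238 in muscle, 81.7 and 86.7 in endothelium, 17.4 and 26.8 in fat and 47.7 and 40.8 in macrophage nuclei. Each gene's lowest fibroblast value lay above its highest value in any other class. The edgeR log2 difference in fibroblasts was 3.60 ± 0.13 (SE) for Col1a1 (adjusted p = 1.61e-08) and 3.36 ± 0.11 for Col1a2 (adjusted p = 1.16e-08). In muscle both were called higher as well, by 1.42 and 1.67 on the log2 scale. The number of Col1a1 UMIs per Col1a2 UMI was 0.420 and 0.423 in muscle and 0.540 and 0.575 in fibroblasts. Col3a1, the chain of type III collagen, stood at 558 and 614 CPM in fibroblast, 405 and 284 in muscle, 51.8 and 56.6 in endothelium, 18.2 and 30.2 in fat and 57.2 and 47.4 in macrophage nuclei. It was called higher in fibroblasts (log2 difference 3.04 ± 0.15 SE) and in muscle (2.25 ± 0.15 SE). The fibroblast values of Col3a1 exceeded those of muscle by 0.63 on the log2 scale (edgeR adjusted p = 0.0349), a call not made by DESeq2.

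Type V collagen, which joins type I fibrils and limits their width, had 2 genes with the highest level in fibroblasts, Col5a1 and Col5a3, and 1 in endothelium, Col5a2. Col5a1 stood at 302 and 285 CPM in fibroblast, 274 and 254 in muscle, 75.0 and 92.6 in endothelium, 8.83 and 18.7 in fat and 26.2 and 25.5 in macrophage nuclei. Its fibroblast and muscle levels did not differ in edgeR (log2 difference 0.02 ± 0.20 SE, adjusted p = 0.955). Col5a2 was highest in endothelium, at 599.6 and 529.6 CPM, with 348 and 346 in muscle, 327 and 356 in fibroblast, 23.6 and 33.1 in fat and 73.3 and 40.8 in macrophage nuclei. Its endothelial level exceeded the muscle level by 0.61 on the log2 scale (edgeR adjusted p = 0.0286). The count of Col5a1 UMIs per Col5a2 UMI was therefore 0.125 (95% exact binomial interval 0.118 to 0.132) and 0.175 (0.167 to 0.183) in endothelium. In muscle the same ratio was 0.788 and 0.734, and in fibroblasts 0.921 and 0.800. Col5a3, a minor chain of the type, stood at 44.9 and 39.98 CPM in fibroblasts and between 1.08 and 9.42 CPM in the other classes, a log2 difference of 3.90 ± 0.37 (SE, edgeR adjusted p = 1.40e-05).

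Col27a1, a fibrillar chain gene best known from cartilage, had its highest level in fat. It stood at 234 and 179 CPM in fat, 118 and 73.0 in muscle, 53.3 and 25.8 in fibroblast, 15.2 and 13.4 in endothelium and 33.6 and 14.5 in macrophage nuclei. The log2 difference was 2.62 ± 0.13 (SE) in fat (edgeR adjusted p = 6.18e-08) and 1.35 ± 0.14 in muscle (adjusted p = 2.00e-05). In Female macrophage nuclei 30 of its 50 UMIs came from 1 nucleus. Col11a2, a minor fibrillar chain, was called higher in fat at a low level, 11.6 and 10.1 CPM, by 1.96 ± 0.32 on the log2 scale. Col11a1, its partner, was called higher in macrophages, at 45.7 CPM in the Female and 0.878 CPM in the Male library. That call rested on 1 Female nucleus, which held 60 of the 68 UMIs. The same nucleus held 45 of the 46 UMIs behind the macrophage call of Col25a1. Without nuclei holding at least 40% of a member's UMIs in their class and library, none of 36 tested members was called higher in macrophages by edgeR, nor was any at an unadjusted p under 0.05. DESeq2 with all nuclei called 2.

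Of the 6 genes of type IV collagen, 4 were called higher in muscle, 4 in fibroblasts and 2 in endothelium, while 4 were called lower in fat. They lie in 3 pairs, each pair head to head on 1 chromosome. In the GENCODE annotation of GRCm38, Col4a1 (minus strand) and Col4a2 (plus strand) on chromosome 8 overlap by 22 bases at their starts. On chromosome 1 the starts of Col4a4 (minus) and Col4a3 (plus) are 71 bases apart, and on chromosome X those of Col4a6 (minus) and Col4a5 (plus) are 1308 bases apart. Stretches from between the starts are shown because members of a pair moved together over the classes. They come from RefSeq promoter windows of GRCm38.p6, which matched 35 of the 44 members, and run 5′ to 3′ on the strand of the first gene named. Capitals mark GGGCGG (a GC box), CCAAT and TATAAA on either strand, and no bases of an annotated exon are printed except the overlap.
Col4a2 and Col4a1 overlap, chr8:11312805-11312826, plus strand: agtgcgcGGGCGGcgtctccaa
Col4a4 to Col4a3, chr1:82586850-82586920, minus strand: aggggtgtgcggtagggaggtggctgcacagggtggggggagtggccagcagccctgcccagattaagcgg
Col4a6 upstream, chrX:141474077-141474326, minus strand: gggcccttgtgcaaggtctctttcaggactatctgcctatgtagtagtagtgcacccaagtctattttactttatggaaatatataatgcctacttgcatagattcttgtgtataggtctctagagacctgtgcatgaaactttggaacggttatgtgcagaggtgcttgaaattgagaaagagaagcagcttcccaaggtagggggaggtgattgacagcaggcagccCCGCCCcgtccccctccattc
Col4a5 upstream, chrX:141475169-141475384, plus strand: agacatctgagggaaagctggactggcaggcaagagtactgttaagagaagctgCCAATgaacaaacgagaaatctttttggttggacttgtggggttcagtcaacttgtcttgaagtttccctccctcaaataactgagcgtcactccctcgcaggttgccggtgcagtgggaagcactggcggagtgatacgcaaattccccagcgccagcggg

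The share of G and C was 72.7% in the first stretch, 69.0% in the second, 47.6% before Col4a6 and 52.3% before Col4a5. In the full 300-base windows, from 250 bases before to 50 after the RefSeq start, GGGCGG occurred 3 times for Col4a2, once each for Col4a1, Col4a5 and Col4a6 and not for Col4a4. Over all 32851 windows of that length, 35.7% held GGGCGG, 37.4% CCAAT and 13.6% TATAAA on either strand. TATAAA was in none of the 5 type IV windows. These matches describe letters and not bound sites, and the windows of Col4a1 and Col4a2 share 78 bases.

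Col4a1 and Col4a2, which code for the chains found in nearly all basement membranes, were highest in muscle and well represented in fat. Col4a1 stood at 318 and 389 CPM in muscle, 156 and 187 in fat, 147 and 205 in fibroblast, 159 and 169 in endothelium and 33.0 and 43.5 in macrophage nuclei. Col4a2 stood at 232 and 287 CPM in muscle, 156 and 175 in fat, 84.4 and 128 in fibroblast, 83.9 and 90.4 in endothelium and 29.6 and 29.0 in macrophage nuclei. Muscle was above every other class in both libraries for both genes. The edgeR log2 difference in muscle was 1.71 ± 0.09 (SE) for Col4a1 (adjusted p = 1.27e-07) and 1.79 ± 0.10 for Col4a2 (adjusted p = 3.08e-07). Neither was called in endothelium or fibroblasts. Since their models overlap and the use of strand in counting is not given in the sources used here, reads from the overlap cannot be assigned with certainty.

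Col4a3 and Col4a4, chains best known from the basement membranes of the kidney glomerulus, were highest in fibroblast and endothelial nuclei. Col4a3 stood at 262 and 361 CPM in fibroblast, 247 and 182 in endothelium, 122 and 82.3 in muscle, 7.21 and 10.5 in fat and 25.6 and 39.96 in macrophage nuclei. Col4a4 stood at 342 and 449 CPM in fibroblast, 393 and 317 in endothelium, 91.3 and 70.0 in muscle, 10.3 and 17.2 in fat and 34.3 and 20.6 in macrophage nuclei. For Col4a4 the higher class differed between the libraries, endothelium in Female and fibroblast in Male. Fibroblast and endothelium did not differ beyond their spread for either gene (edgeR log2 difference 0.50 ± 0.25 SE, adjusted p = 0.151, for Col4a3 and 0.12 ± 0.23 SE, adjusted p = 0.744, for Col4a4). Both were called higher in both of these classes, by 1.97 to 2.77 on the log2 scale, and lower in fat (log2 difference -3.85 for Col4a3 and -3.31 for Col4a4).

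Col4a5 and Col4a6, a pair known from the basement membranes of smooth muscle, were highest in muscle. Col4a5 stood at 641 and 643 CPM in muscle, 264 and 209 in fibroblast, 73.4 and 65.4 in endothelium, 22.1 and 24.1 in fat and 80.0 and 40.8 in macrophage nuclei. Col4a6 stood at 1151 and 1009 CPM in muscle, 330.0 and 208 in fibroblast, 74.7 and 73.7 in endothelium, 17.9 and 16.4 in fat and 161 and 64.1 in macrophage nuclei. The edgeR log2 difference in muscle was 3.36 ± 0.13 (SE) for Col4a5 (adjusted p = 1.27e-08) and 3.93 ± 0.16 for Col4a6 (adjusted p = 2.55e-08). In Female macrophages 143 of the 240 Col4a6 UMIs lay in 1 nucleus that was called a doublet and also held 16 UMIs of the muscle markers. A Col4a6 UMI was found in 81.2% of Female and 72.8% of Male muscle nuclei, and in 6.44% and 7.04% of macrophage nuclei, which had lower median depths. After thinning every nucleus to 1000 UMIs the shares were 55.7% and 50.9% in muscle and 2.73% and 2.57% in macrophages.

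Within pairs the class profiles were alike and between pairs they were not. Over the 10 sums of class and library, which share libraries and depth, Pearson's r of log2 CPM was 0.96 for Col4a1 and Col4a2, 0.96 for Col4a3 and Col4a4 and 0.98 for Col4a5 and Col4a6. Between genes of different pairs r ranged from 0.04 to 0.64. The ratio of UMIs within a pair still differed between classes. Col4a1 per Col4a2 was 1.37 and 1.36 in muscle, 1.90 and 1.87 in endothelium and 1.001 and 1.07 in fat, with 95% exact binomial intervals of 1.33 to 1.41, 1.78 to 2.02 and 0.935 to 1.07 in the Female library. Col4a3 per Col4a4 was 1.34 and 1.18 in muscle and 0.628 and 0.575 in endothelium. These intervals cover counting error only.

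**Figure D2:**
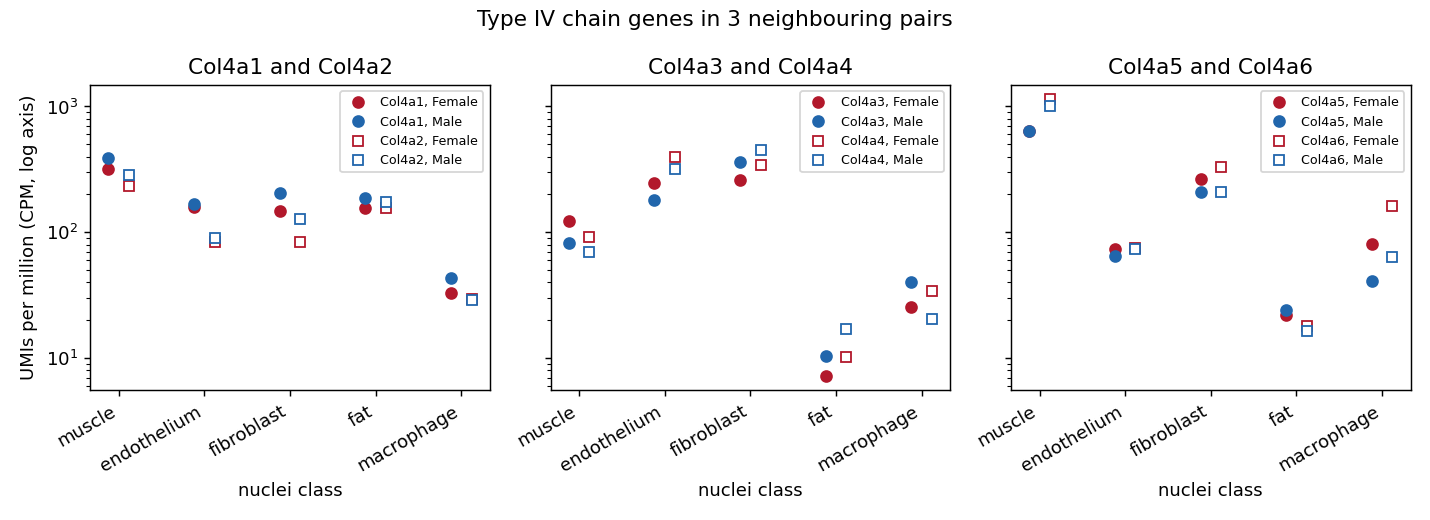
Each panel shows 1 pair of type IV collagen genes, with CPM on a log axis against nuclei class, filled circles for the first gene, open squares for the second and colour for the library. Col4a1 and Col4a2 reach 156 to 187 CPM in fat where the other 4 genes stand at 7.21 to 24.1 CPM, Col4a3 and Col4a4 are highest in fibroblast and endothelium, and Col4a5 and Col4a6 in muscle.

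Beaded filament collagen of type VI, a microfibril that connects cells to their matrix, was led by fibroblasts, where all 4 tested genes were called higher, followed by muscle with 3. Col6a1 stood at 166 and 142 CPM in fibroblast, 82.7 and 94.9 in muscle, 10.3 and 14.2 in endothelium, 4.24 and 7.35 in fat and 18.8 and 11.4 in macrophage nuclei. Col6a2 stood at 173 and 149 CPM in fibroblast, 93.2 and 104 in muscle, 11.8 and 14.9 in endothelium, 4.87 and 6.11 in fat and 13.5 and 12.3 in macrophage nuclei. Col6a1 and Col6a2 were called higher in fibroblasts by 3.12 ± 0.15 and 3.18 ± 0.10 (SE) on the log2 scale, and their UMI ratio lay between 0.877 and 0.963 in the muscle, endothelium and fibroblast sums. Col6a3, the long chain that completes the common trimer, stood at 315 and 166 CPM in fibroblast, 205 and 162 in muscle, 25.6 and 23.0 in endothelium, 6.31 and 9.21 in fat and 33.6 and 18.4 in macrophage nuclei. Its fibroblast and muscle levels did not differ in edgeR (log2 difference 0.22 ± 0.22 SE, adjusted p = 0.472), and the Male values were close to each other. Col6a6, an alternative chain, stood at 94.7 and 60.8 CPM in fibroblasts and between 1.04 and 9.36 CPM elsewhere. Its log2 difference was 4.53 ± 0.12 (SE, edgeR adjusted p = 3.99e-09). Col6a4 had 8 UMIs in all and Col6a5 had 44, and neither was tested.

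Type VIII collagen makes short-chain lattices under endothelium. Col8a1 stood at 131 and 133 CPM in endothelium, 82.0 and 125 in fibroblast, 58.1 and 31.0 in muscle, 2.52 and 3.73 in fat and 2.69 and 5.27 in macrophage nuclei. Its endothelial and fibroblast levels did not differ in edgeR (log2 difference 0.39 ± 0.27 SE, adjusted p = 0.298). It was also called higher than the mean of the others in muscle (1.23 ± 0.26 SE, adjusted p = 0.00314), although muscle stood below endothelium and fibroblasts, as fat and macrophage levels were lower still. A Col8a1 UMI was present in 13.01% and 14.99% of endothelial nuclei. Col8a2, the other chain, stood at 7.90 and 11.1 CPM in fibroblasts and at most 1.35 CPM elsewhere, a log2 difference of 3.85 ± 0.44 (SE). For each Col8a2 UMI there were 10.4 and 11.2 Col8a1 UMIs in fibroblasts. Col10a1, a related gene of growth cartilage, had 6 UMIs in all.

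Of the 8 fibril-associated genes tested, 3 were called higher in fibroblasts and 2 in muscle. Among them Col14a1 marked fibroblasts and Col19a1 marked muscle. Col14a1, whose protein sits on the surface of type I fibrils, stood at 1678 and 1429.6 CPM in fibroblast, 94.2 and 71.5 in muscle, 58.7 and 64.2 in endothelium, 15.6 and 22.0 in fat and 67.3 and 48.7 in macrophage nuclei. Its log2 difference was 4.97 ± 0.12 (SE, edgeR adjusted p = 3.36e-09), and 82.2% and 76.5% of fibroblast nuclei held a UMI of it against 6.86% and 6.61% of macrophage nuclei. Col19a1, a gene first studied in muscle development, stood at 153 and 148 CPM in muscle, 2.41 and 3.94 in endothelium, 3.27 and 2.19 in fibroblast, 2.25 and 1.76 in fat and 9.42 and 5.71 in macrophage nuclei. The log2 difference in muscle was 5.61 ± 0.14 (SE, edgeR adjusted p = 8.71e-10), and a UMI was present in 29.3% and 24.5% of muscle nuclei. In macrophages 1 nucleus held 8 of its 14 Female UMIs, and another held 6 of its 13 Male UMIs. Col22a1, known from tissue junctions of muscle, was called higher in muscle at 2.13 and 1.34 CPM (log2 difference 4.77 ± 0.60 SE).

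Col12a1 and Col16a1, which also decorate fibrils, were led by fibroblasts. Col12a1 stood at 56.3 and 44.9 CPM in fibroblast, 26.9 and 14.3 in fat, 3.68 and 4.74 in muscle, 2.89 and 2.58 in endothelium and 2.69 and 0.878 in macrophage nuclei. It was called higher in fibroblasts (log2 difference 3.47 ± 0.21 SE) and in fat (1.84 ± 0.24 SE). Col16a1 stood at 37.9 and 38.7 CPM in fibroblast, 5.07 and 5.63 in muscle, 3.26 and 2.99 in endothelium, 0.721 and 0.932 in fat and 4.04 and 3.95 in macrophage nuclei, a log2 difference of 3.78 ± 0.12 (SE) in fibroblasts. Col20a1 varied least, at 42.6 and 39.1 CPM in fibroblast, 30.7 and 31.0 in fat, 21.8 and 22.8 in muscle, 17.3 and 18.6 in endothelium and 9.42 and 18.9 in macrophage nuclei. It was called higher in no class. Col9a1, a cartilage chain, was called higher in endothelium at 1.44 and 1.35 CPM (log2 difference 3.39 ± 0.65 SE), against at most 0.597 CPM in the other classes.

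The multiplexins Col15a1 and Col18a1, proteoglycan collagens of the basement membrane zone, were both highest in muscle. Col15a1 stood at 219.5 and 232 CPM in muscle, 119 and 65.0 in fibroblast, 12.1 and 12.02 in endothelium, 8.38 and 4.66 in fat and 14.1 and 16.2 in macrophage nuclei. Col18a1, whose C-terminal fragment is endostatin, stood at 709 and 1062 CPM in muscle, 66.2 and 77.1 in endothelium, 47.5 and 57.8 in fibroblast, 30.7 and 39.1 in fat and 44.4 and 56.6 in macrophage nuclei. The edgeR log2 difference in muscle was 3.77 ± 0.16 (SE) for Col15a1 (adjusted p = 3.48e-08) and 4.23 ± 0.08 for Col18a1 (adjusted p = 2.85e-10). Col15a1 was called higher in fibroblasts too (1.93 ± 0.18 SE), whereas Col18a1 was not. Col18a1 overlaps the coding gene Slc19a1, whose reads may be mixed with it if strand was not used.

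Of the 3 transmembrane genes tested, Col23a1 and Col25a1 were called higher in endothelium. Col23a1 stood at 188 and 230.2 CPM in endothelium, 48.8 and 26.4 in fibroblast, 33.9 and 28.0 in fat, 17.5 and 15.8 in muscle and 14.1 and 21.1 in macrophage nuclei. The log2 difference was 3.13 ± 0.16 (SE, edgeR adjusted p = 1.78e-07) in endothelium, and Col23a1 was the only member called lower in muscle (-1.34 ± 0.21 SE). Col25a1 was called higher in endothelium at 4.28 and 9.93 CPM, where 109 of 242 Male UMIs came from 1 nucleus. DESeq2 did not call it there, while edgeR still did without that nucleus. Col13a1 was called higher in fibroblasts at 0.790 and 1.09 CPM, a call lost in DESeq2 and under a stricter class rule. Col17a1 had 9 UMIs in all.

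The remaining members were rare. Col7a1, the gene of the anchoring fibrils of skin, was called higher in fat at 8.38 and 7.25 CPM (log2 difference 1.22 ± 0.21 SE). The 7 members under 50 UMIs, Col2a1, Col6a4, Col6a5, Col9a2, Col10a1, Col17a1 and Col26a1, had between 6 and 47 UMIs and reached at most 3.36 CPM in any sum. Of the tested members 4 were called higher in no class, Col9a3, Col20a1, Col24a1 and Col28a1, and the share of all genes in no class is not given. Overlap with another gene model was found for 28 members and with a coding gene for 5: Col4a1, Col4a2, Col9a3 with Tcfl5, Col10a1 with Nt5dc1, and Col18a1.

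For the 26 members with at least 20 CPM in 1 class of both libraries, the class with the highest level was compared with the next. The pair of classes was picked by level from the same sums, so these calls describe the order and are no independent test of it. The highest class exceeded the next (edgeR adjusted p under 0.05) for 21 members. Fibroblast and muscle held the first and second places for 14 members and differed for 12, where 38.1% of all genes differed. The exceptions were Col5a1 and Col6a3. Fibroblast and endothelium held them for 4 members and differed only for Col23a1, where 38.4% of all genes differed, leaving Col4a3, Col4a4 and Col8a1 unordered. Endothelium and muscle differed for Col5a2 and Col18a1, against 44.9% of all genes. Fat and fibroblast differed for Col5a3, Col12a1 and Col20a1, against 61.0%, though Col20a1 was not called in 7 of the 10 alternatives run. Fat and muscle differed for Col27a1 and Col4a2, against 62.4%, and macrophage and muscle for Col19a1, against 43.3%.

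In fat nuclei 19 of 25 members that were highest elsewhere stood at or below 10% of their highest class in both libraries. Col4a1, Col4a2, Col12a1, Col20a1 and Col23a1 exceeded 10% in both libraries. Markers of fibroblasts and muscle stood in fat at medians of 1.14% to 3.68% of their own class, with single markers up to 6.30%. In macrophages 13 of 26 members stood at or below 10% of their highest class in both libraries, and 25 at or below 15%. The medians were 9.36% and 7.35%. Col4a1, Col4a2, Col6a3, Col16a1 and Col20a1 exceeded 10% in macrophages of both libraries. Marker genes of fibroblasts, muscle and endothelium stood there at medians of 2.88% to 6.97%, with single markers up to 32.9% (Kdr, Female). These marker lists include the 3 markers of each class rule, whose low level in other classes is partly set by the rule. No share over all genes is given beside the fat and macrophage counts, so they are not read as particular to collagens. The part of carried RNA in these collagen values was not tested, and the low values are not read as expression by fat cells or macrophages.

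A list of 40 genes for making, processing and sensing collagen was measured in the same way. All 40 were tested, and 24 were called higher in fibroblasts (15.1% of all genes were), 17 in muscle (14.5%), 10 in endothelium (14.1%), 2 in macrophages (12.7%) and 0 in fat (20.3%). Called lower were 25 in fat (22.6% of all genes were), 22 in macrophages (13.3%), 5 in endothelium (9.11%), 2 in fibroblasts (8.49%) and 1 in muscle (10.4%). In fibroblasts 8 of the 9 processing genes were called higher. Tll2, listed among the processing genes, had the largest log2 difference there (6.79 ± 0.60 SE) but stood at 1.36 CPM in the Female and 23.0 CPM in the Male library. Itga11, a subunit of a collagen-binding integrin, stood at 188 and 127 CPM (4.95 ± 0.15 SE). Ddr2, a receptor tyrosine kinase for fibrillar collagen, stood at 958 and 865 CPM (4.25 ± 0.11 SE). It was also called higher in muscle, at 176 and 153 CPM. Pcolce, which enhances C-propeptide cleavage, stood at 221 and 242 CPM (4.04 ± 0.09 SE).

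The 4 leading genes of the list in muscle differed from those in fibroblasts. P3h2, a prolyl 3-hydroxylase that acts on type IV collagen, stood at 104 and 95.1 CPM (log2 difference 2.76 ± 0.18 SE). Loxl3, a cross-linking enzyme, stood at 81.6 and 101 CPM (2.32 ± 0.10 SE). Itga10, another collagen-binding integrin subunit, stood at 27.6 and 30.6 CPM (2.30 ± 0.12 SE), and Adamts14, an N-proteinase, at 9.69 and 12.95 CPM (2.23 ± 0.18 SE). Loxl3 and Adamts14 were called higher in fibroblasts too. There Loxl3 stood above muscle, at 113 and 143 CPM, and Adamts14 stood at 8.69 and 11.6 CPM. P3h2 was also called higher in macrophages, at 278 and 173 CPM (4.01 ± 0.20 SE), with Plod1, a lysyl hydroxylase, at 106 and 124 CPM (1.28 ± 0.12 SE). In endothelium the leading genes were P4ha3, a prolyl 4-hydroxylase subunit, at 1.07 and 1.48 CPM (3.90 ± 0.55 SE), and Lox, a cross-linking enzyme, at 42.8 and 49.8 CPM (2.71 ± 0.16 SE). They were followed by Loxl4 at 3.05 and 2.67 CPM (1.95 ± 0.34 SE) and Tll1 at 16.0 and 19.97 CPM (1.87 ± 0.15 SE). Both Loxl4 and Tll1 were also called in fibroblasts and stood higher there, at 6.10 and 5.97 CPM and at 29.8 and 37.0 CPM. Lox was also called higher in muscle, at 16.6 and 23.9 CPM.

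Muscle, endothelial and fibroblast nuclei were each split into 3 sets by further markers, which had been leading genes of clusters of these nuclei. Each nucleus went to the set with the largest UMI sum of 2 or more, and the values are a description without a test. Among muscle nuclei, the Pdzrn4 set numbered 5243 and 3402, the Ptprz1 set 1201 and 2045 and the Lrrtm3 set 599 and 514. Col18a1 stood at 840 and 1223.5 CPM in the Ptprz1 set, 707 and 1034 in the Pdzrn4 set and 339 and 463 in the Lrrtm3 set. Col4a6 ran the other way, at 927 and 797 CPM in the Ptprz1 set, 1177.5 and 1100.3 in the Pdzrn4 set and 1719 and 1615 in the Lrrtm3 set. Thus the Lrrtm3 set was lowest for one basement membrane gene and highest for another, in both libraries. Col4a3 was lowest in the Ptprz1 set, at 79.3 and 47.4 CPM, against 137.5 and 103 in the Pdzrn4 set and 87.9 and 93.9 in the Lrrtm3 set. Col14a1, the fibroblast gene, stood at 163 and 228 CPM in the Lrrtm3 set, against 79.2 and 48.3 in the Ptprz1 set. Col19a1 had no set that was low in both libraries, at 73.9 and 146 CPM in the Lrrtm3 set against 155.5 and 146 in the Pdzrn4 set.

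Among fibroblast nuclei, the C7 set numbered 515 and 1016, the Pex5l set 530 and 232 and the Pi16 set 865 and 924. Col15a1 stood at 321 and 291 CPM in the Pex5l set, 53.1 and 45.8 in the C7 set and 46.4 and 29.6 in the Pi16 set. Col4a6 stood at 593 and 566.5 CPM in the Pex5l set, 297 and 201 in the C7 set and 117 and 96.3 in the Pi16 set. The Pex5l set was also highest for Col4a5, Col4a1, Col27a1 and Col6a3 in both libraries, each at least 2-fold above the Pi16 set. Col14a1 was reversed, at 2336 and 2009 CPM in the Pi16 set, 1505 and 1311 in the C7 set and 1072 and 622 in the Pex5l set. Col12a1 stood at 99.2 and 76.0 CPM in the Pi16 set against 21.2 to 36.2 CPM in the other sets. The set highest for these type IV and multiplexin genes and the set highest for Col14a1 and Col12a1 were thus different ones in both libraries.

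**Figure D3:**
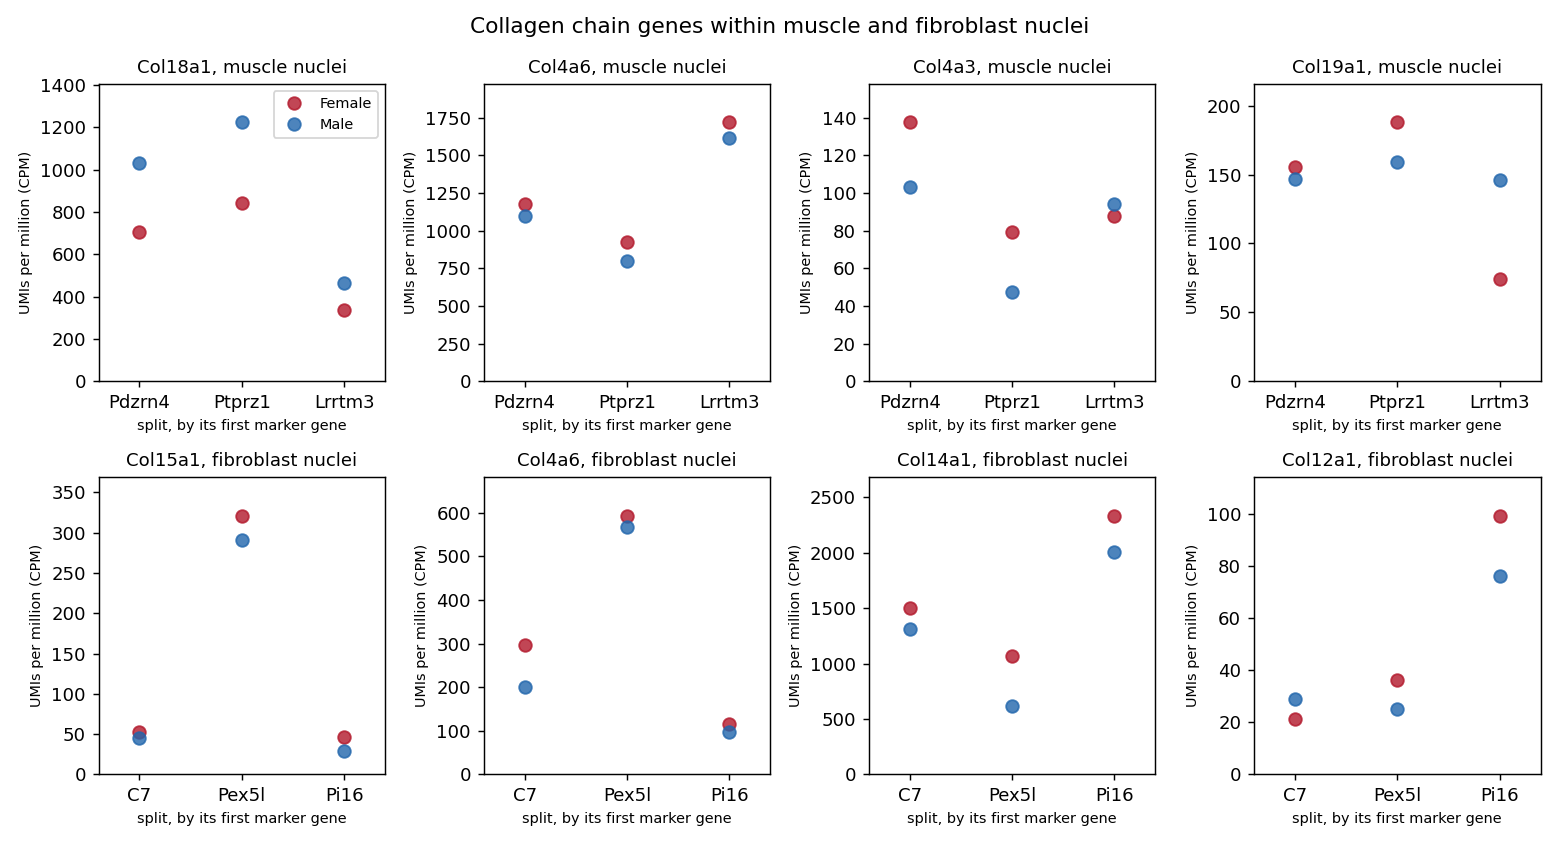
CPM is plotted from 0 for 4 genes in the 3 sets of muscle nuclei (upper row) and 4 genes in the 3 sets of fibroblast nuclei (lower row), with 1 point for each library. Col15a1 and Col4a6 are highest in the Pex5l set of fibroblasts and Col14a1 and Col12a1 in the Pi16 set, while in muscle Col18a1 is lowest and Col4a6 highest in the Lrrtm3 set.

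Among endothelial nuclei, Col4a2 stood at 116 and 123 CPM in the Nrg1 set, 85.2 and 95.7 in the Chrm3 set and 50.9 and 58.9 in the Ankrd33b set. Col8a1 was lowest in the Ankrd33b set, at 102 and 64.8 CPM, against 153 to 190 CPM in the other sets. Col4a4 was highest there, at 491 and 346 CPM, against 295 to 364 CPM in the other sets.

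Within a class, nuclei with GFP UMIs and none of tdTomato were compared with those that had tdTomato and no GFP. GFP is the mark of the Wnt1-Cre history, but 1 GFP UMI was enough, so that history is not certain for each nucleus. GFP-only nuclei were 29.8% and 28.7% of muscle and 19.0% and 18.2% of fibroblast nuclei, and 7.90% and 7.18% of macrophage nuclei. Macrophages descend from lineages outside the neural crest, and their share is given for comparison. It is no background level for the other classes, since finding 1 GFP UMI depends on depth. Median UMIs per nucleus were 2392 and 2682 in macrophage, 3844.5 and 3015.5 in muscle and 3607 and 3647 in fibroblast nuclei. The test was edgeR's on 4 sums per class with the library as a block, and a call needed an adjusted p under 0.05. In muscle 3 of 29 tested members were called, where 2.18% of 14558 genes were, and in fibroblasts 1 of 26, where 4.33% of 10840 genes were.

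In muscle, Col4a3 stood at 103 CPM in GFP-only and 139 CPM in tdTomato-only nuclei of the Female library and at 74.0 and 98.7 CPM in the Male library. It was lower in GFP-only nuclei of both libraries, by a log2 difference of -0.43 ± 0.06 (SE, edgeR adjusted p = 0.00603). Col8a1 stood at 51.6 against 70.1 CPM in Female and 29.2 against 39.2 CPM in Male nuclei, a log2 difference of -0.44 ± 0.08 (SE, edgeR adjusted p = 0.0298). Col19a1 was higher with GFP, at 159 against 138 CPM in Female and 168 against 134 CPM in Male nuclei (log2 difference 0.26 ± 0.05 SE, edgeR adjusted p = 0.0447). Col4a3 was lower with GFP in each muscle set of both libraries, by least in the Female Lrrtm3 set (85.6 against 87.9 CPM, from 76 and 11 UMIs). Col8a1 was lower with GFP in the Pdzrn4 and Ptprz1 sets, but not in the Male Lrrtm3 set, at 67.8 against 15.2 CPM from 46 and 3 UMIs. Col19a1 was higher with GFP in each set of both libraries, though the Lrrtm3 set rested on few tdTomato UMIs. There GFP-only and tdTomato-only nuclei held 83 and 4 Col19a1 UMIs in the Female and 214 and 10 in the Male library. The Lrrtm3 set had the highest GFP-only share, 36.6% and 35.4%.

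In fibroblasts Col1a1 stood at 492 CPM in GFP-only and 332 CPM in tdTomato-only nuclei of the Female library and at 437 and 308 CPM in the Male library. The log2 difference was 0.55 ± 0.14 (SE, edgeR adjusted p = 0.0188). Col1a1 was higher with GFP in the C7, Pex5l and Pi16 sets of both libraries. The smallest ratio was in the Female C7 set, at 442 against 397 CPM, and the largest in the Female Pi16 set, at 415 against 261 CPM. Its partner Col1a2 stood at 803 against 670 CPM in Female and 719 against 544 CPM in Male nuclei and was not called (edgeR adjusted p = 0.218). No call was made for these members by DESeq2 or without the library block, and those of Col8a1 and Col19a1 were also lost when a reporter needed at least 2 UMIs. DESeq2 had 6 of 29 members in muscle and 1 of 26 in fibroblasts at an unadjusted p under 0.05.

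**Figure D4:**
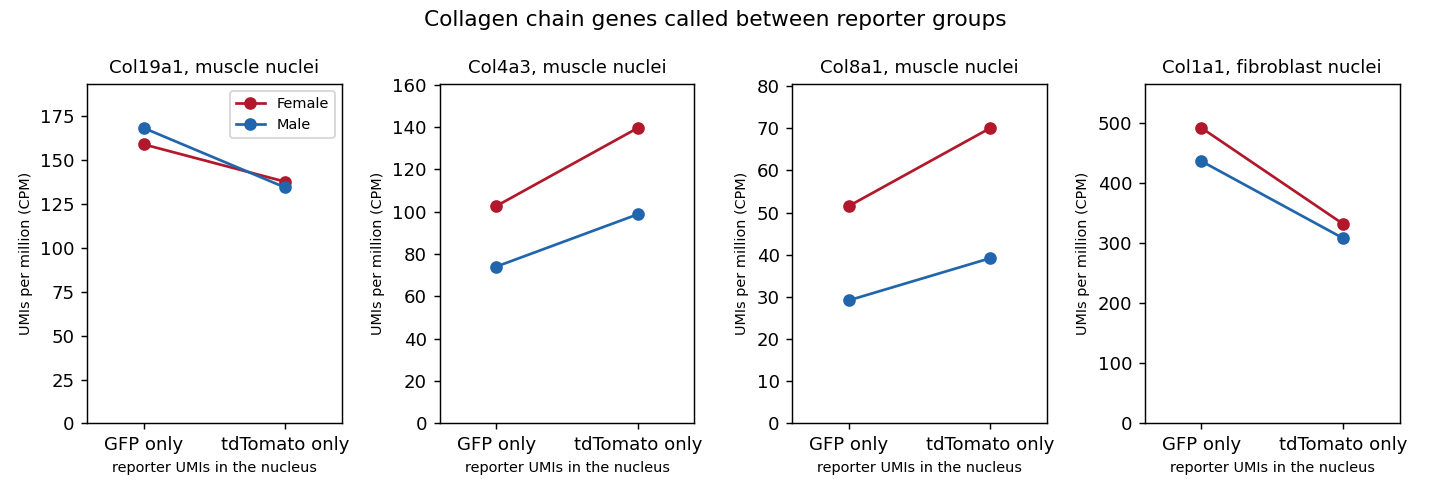
CPM from 0 is shown for the 4 called members in GFP-only and tdTomato-only nuclei, with a line for each library. Both lines fall from left to right for Col1a1 in fibroblasts and Col19a1 in muscle, and both climb for Col4a3 and Col8a1 in muscle.

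With 1 library per sex there is no test of the sexes, and sex cannot be told apart from the library and its pool. Female and Male CPM, each raised by 5, were compared as a log2 ratio wherever a member had 50 or more UMIs in all and reached 20 CPM in a library. None of 21 members in muscle, 16 in endothelium, 25 in fibroblast and 12 in fat nuclei was 2-fold apart, where 0.375%, 0.412%, 0.905% and 2.02% of all genes were. In macrophages 2 of 17 were, against 1.94% of all genes, Col11a1 (log2 ratio 3.11) and Col4a6 (1.27), and both rested on the single Female nuclei described above. Without those nuclei no member was 2-fold apart in macrophages.

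The largest ratios in muscle were those of Col8a1 (58.1 against 31.0 CPM, log2 ratio 0.81), Col27a1 (118 against 73.0 CPM, 0.66) and Col18a1 (709 against 1062 CPM, -0.58). Their Female to Male ratios had 95% exact intervals of 1.73 to 2.03, 1.54 to 1.71 and 0.656 to 0.679, for counting error only. Col18a1 was lower in the Female library in each muscle set and in all 5 classes. In fibroblasts the largest were Col27a1 (53.3 against 25.8 CPM, 0.92), Col6a3 (315 against 166 CPM, 0.90) and Col15a1 (119 against 65.0 CPM, 0.83). Col27a1 passed 2-fold on the plain ratio of CPM (2.07, interval 1.77 to 2.42) and when the added constant was 1 CPM. Female fibroblasts held more nuclei of the Pex5l set, 530 against 232, where Col15a1 is high. Within that set Col15a1 was at 321 against 291 CPM, and it was also higher in Female nuclei of the C7 and Pi16 sets. Col6a3 was at 511 against 314 CPM in the Pex5l set, 251 against 128 CPM in the Pi16 set and 284 against 167 CPM in the C7 set. The part of the set sizes in these library ratios was not tested.

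In endothelium the largest ratios were those of Col1a1 (25.2 against 35.6 CPM, -0.43), Col4a3 (247 against 182 CPM, 0.43) and Col4a4 (393 against 317 CPM, 0.31). In fat they were those of Col12a1 (26.9 against 14.3 CPM, 0.72), Col3a1 (18.2 against 30.2 CPM, -0.60) and Col1a2 (17.4 against 26.8 CPM, -0.51). The UMI ratio of Col6a3 to Col6a1 was higher in the Female library in all 5 classes, at 2.48 against 1.71 in muscle, 2.48 against 1.61 in endothelium and 1.89 against 1.17 in fibroblasts.

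**Figure D5:**
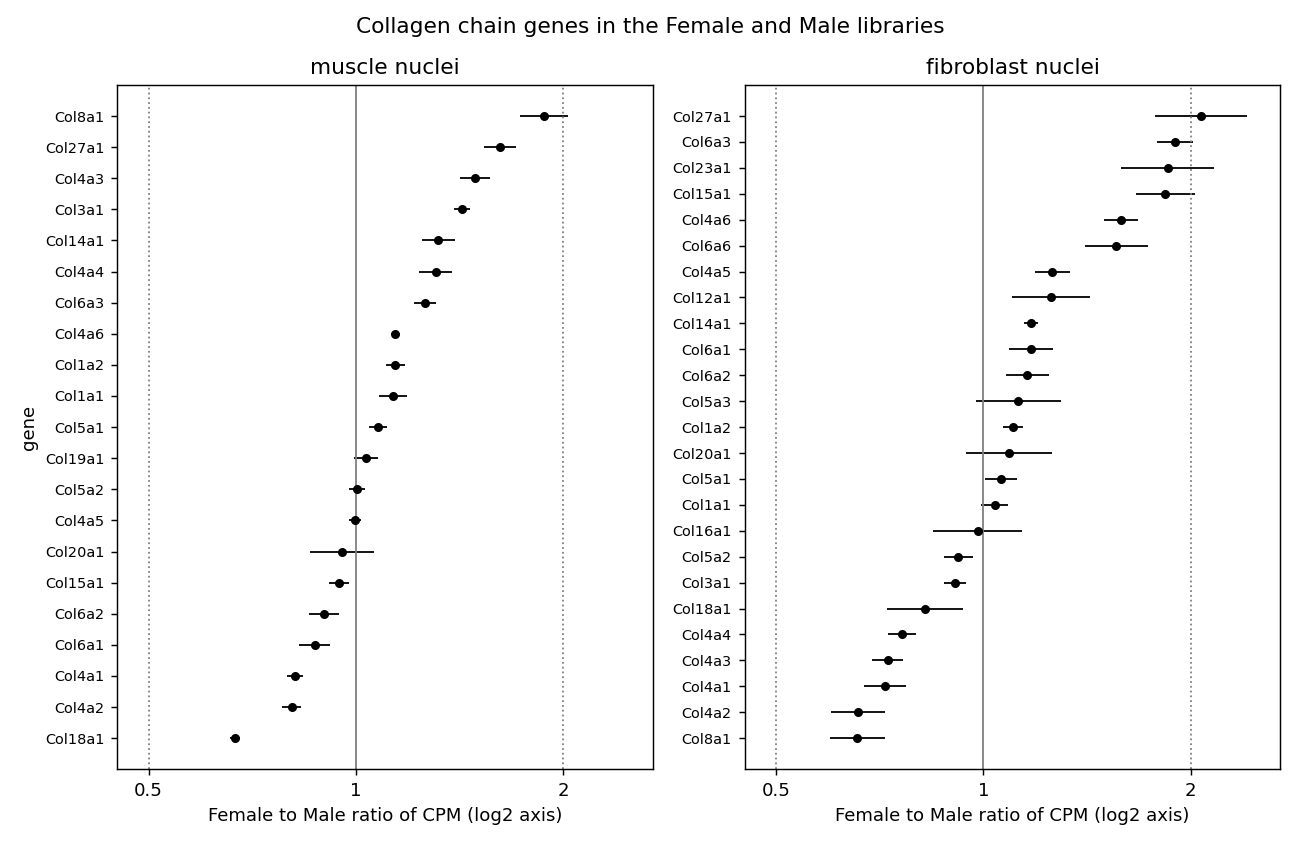
Points give the Female to Male ratio of CPM on a log2 axis for the 21 members compared in muscle and the 25 in fibroblast nuclei, bars give 95% exact intervals for counting error, and dotted lines mark 2-fold. Col8a1 is at the top in muscle (1.88) and at the bottom in fibroblasts (0.656).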

How the data were processed

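A Female and a Male pool of nuclei were analysed. Members and lists were chosen with earlier results of these data known. The deposited values are raw UMI counts, which the authors made with Cell Ranger 7.0.0 per the file headers. The submitters' processing notes also name STAR, Seurat 4.4.0 and GRCm38. No source used here states whether introns or strand were used. Of 18872 and 20659 barcodes, each with at least 500 UMIs, 18863 and 20653 had 300 genes, and ties for a class (80 and 86) were left out. UMIs were summed per library and class and tested with edgeR 4.0.16 (TMM, quasi-likelihood, Benjamini-Hochberg adjustment) in R 4.3.3 for genes with at least 50 UMIs. On simulated counts the fibroblast contrast recovered 182 of 200 planted changes of log2 1, with 9 false calls. There genes had no other class or library difference and 1 fixed spread, and the 2-fold rule was not applied. The simulation thus cannot show how reliable the calls on these data are. Alternatives were DESeq2 1.42.0, its size factors, other minimums, a stricter class rule (5 UMIs and 2 times the next sum), removal of scrublet doublets (948 and 1556, scanpy 1.11.5) and of nuclei over 10% mitochondrial UMIs, removal of shared barcodes, and thinning to 1000 UMIs. Members named in full have at least 20 CPM in 1 class of both libraries or were called. Pathway genes named are the 4 called with the largest change per class. Positions came from GENCODE M21.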

Additional observations from a re-analysis of the deposited data

Results flagged for a closer look

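Col8a1 differed between GFP-only and tdTomato-only nuclei in opposite directions in muscle and fibroblasts. In muscle it was lower with GFP in both libraries, and in fibroblasts it stood at 124 against 112 CPM in the Female and 159 against 130 CPM in the Male library. The muscle difference minus the fibroblast difference was -0.64 on the log2 scale, a contrast that was not tested, and the fibroblast difference alone was not called (edgeR adjusted p = 0.628).

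For 7 members the Female library was above the Male one in one of muscle and fibroblast nuclei and below it in the other, with both counting intervals leaving out a ratio of 1. The muscle log2 ratio minus the fibroblast log2 ratio was 1.39 for Col8a1, 1.0 for Col4a3, 0.75 for Col4a4 and 0.64 for Col3a1. It was -0.91 for Col15a1, -0.41 for Col6a1 and -0.35 for Col6a2. None of these differences was tested, since there is 1 library per sex and counting intervals leave out the spread between animals and between nuclei. Mesothelial markers in fibroblast nuclei summed to 129 CPM in the Female and 241 CPM in the Male library, and their part in these values was not tested. In fibroblast sets Col8a1 was lower in the Female library in each, at 132 against 197 CPM (Pex5l), 35.1 against 121 CPM (Pi16) and 70.3 against 127 CPM (C7). Among all fibroblast nuclei 1 Female nucleus held 90 of 726 Col8a1 UMIs, and 1 Male nucleus held 142 of 1256.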

How the results depend on the processing

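Counts of members called higher in muscle, endothelium, fibroblast and fat nuclei, and the count of highest classes that exceeded the next, stayed within 1.5 times under each alternative run. The macrophage count of 2 moved to 4 without a UMI minimum, 1 with a minimum of 200 UMIs, and 0 without shared barcodes, in thinned nuclei and without nuclei holding 40% of a member (an alternative chosen after seeing the data, as were those for the sets). At an unadjusted p under 0.05 these last 3 gave 0, 1 and 0 by edgeR, and DESeq2 called 2. Col25a1 in macrophage nuclei reversed to -6.81 without shared barcodes and -1.92 without such nuclei, and ranged from -2.07 to 4.48 when a library was left out.

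The reporter counts depended most on the settings. In muscle the count of 3 became 5 with DESeq2's size factors, 0 with DESeq2, 8 without a UMI minimum, 0 with no replicate block (that is, no library term, with 2 at an unadjusted p under 0.05), 7 under the stricter class rule, 5 without doublets and 7 without shared barcodes. In fibroblasts the count of 1 became 0 with DESeq2, 2 without a UMI minimum, 0 with no replicate block (2 at an unadjusted p under 0.05), 2 under the stricter class rule, 3 without shared barcodes and 3 with 2 reporter UMIs. The causes were not tested.

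Between the libraries, the count of members 2-fold apart in muscle moved from 0 to 1 without doublets and in thinned nuclei. In fibroblasts it moved from 0 to 1 with 1 CPM added and to 2 in thinned nuclei, and in fat from 0 to 1 without a CPM minimum and in thinned nuclei. In macrophages the count of 2 became 1 with 200 UMIs and 50 CPM, 4 without doublets, 1 without shared barcodes, 0 in thinned nuclei and 0 without nuclei holding 40% of a member. Col4a6 Female against Male macrophage nuclei reversed to a log2 ratio of -0.020 without shared barcodes.

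Nuclear RNA, 1 pool per sex and marker-defined classes limit these values. Fewer expressing nuclei and less RNA per nucleus were not separated in the sums.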

Other observations

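The nuclei without a class, 1436 Female and 1724 Male, also held collagen RNA. Col14a1 stood there at 509 and 304 CPM, Col4a4 at 343 and 373 CPM and Col3a1 at 396 and 339.5 CPM. Col8a1 stood at 63.9 CPM in the Female and 151 CPM in the Male library, the second above each Male class. Sums of 4 markers each in these nuclei were highest for fibroblasts, at 1442.5 and 981 CPM, followed in the Female library by fat (632 CPM; 501 CPM Male) and mesothelial markers (615 and 935 CPM). T cell markers summed to 306 and 886 CPM and heart muscle markers to 326 and 104 CPM. In nuclei of the muscle class the heart muscle list summed to 735 and 738 CPM, of which Ryr2 gave 731 and 732 CPM. The part of these cell types in the collagen values was not tested.

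One Female nucleus of the macrophage class, with 6410 UMIs and 16 UMIs of the macrophage markers, held 60 UMIs of Col11a1, 45 of Col25a1, 30 of Col27a1 and 8 of Col11a2. Its barcode also occurred in the Male library, and it was not called a doublet. A Male endothelial nucleus with 3844 UMIs held 109 UMIs of Col25a1.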
